A study of Mus musculus with 2 samples.

Results

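Sites of open chromatin at 10 genes for neuronal RNA-binding proteins were described in sorted embryonic motor neurons of the mouse. The genes were Elavl2, Elavl3, Elavl4, Nova1, Nova2, Rbfox1, Rbfox2, Rbfox3, Celf4 and Celf5. A site belonged to a gene when its summit lay inside the gene's span, or within 100 kb of it with that gene's end as the nearest end of any protein-coding gene. This gave 324 summits, called entries below, of 138387 in the whole peak list. No entry lay inside another protein-coding gene or within 1 kb of the end of one (0 of 324 each).

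The material was GFP-positive cells purified by FACS from Hb9::GFP embryos (strain C57/Bl6, embryonic day 10.5), spinal motor neurons by their label, profiled by ATAC-seq, in which the Tn5 transposase cuts and tags accessible DNA. Hb9 is another name of Mnx1, and its regulatory sequence drives GFP here, so the sort holds every cell type in which that transgene is active. There was 1 group of 2 replicates, deposited as 1 pooled list, without a control or a second condition. No value below therefore has a replicate error, no test between samples was possible, and nothing in the labels ties the replicates to litters or animals.

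These proteins bind RNA in neurons and set how transcripts are spliced, how long they last and how they are translated. The neuronal Elavl proteins, also called HuB (Elavl2), HuC (Elavl3) and HuD (Elavl4), bind AU-rich and U-rich sequence and stabilise messages of differentiating neurons. Nova proteins bind YCAY motifs through KH domains and regulate alternative exons, and Rbfox proteins bind UGCAUG. Rbfox3 is the antigen NeuN, widely used as a marker of maturing neurons, and Celf4 and Celf5 belong to the CUG-binding Celf family. Accessible DNA at a gene is not a measure of its RNA, which was not profiled.

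Each entry is given with the authors' fold, which is the height of the signal at the summit over the local background estimated by the peak caller. The number of overlapping reads at the summit was recovered from that fold and the deposited −log10 p. No entry had fewer than 11 reads, and 128 of the 324 stood at the genome-wide background of 5.37 reads. Where the local background is higher, more reads are needed for an entry, so a place without one is below the caller's limit there, not shown to be closed. Bounds in brackets are 95% exact Poisson intervals. They cover counting error only, since PCR copies are not independent molecules. Over all 10 genes the median entry had 2.83-fold and 22 reads, against 3.14-fold and 24 reads in the whole list. A q-value under 0.05 was reached by 259 of the 324 entries (79.9%), against 82.3% of the whole list.

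Of the marker genes checked for the label, an entry lay within 1 kb of a listed start (or of a gene end where no start is listed) at 7 of 7 motor neuron genes, 4 of 4 progenitor genes and 4 of 4 genes of other spinal neurons. For blood it was 1 of 4, for endothelium 2 of 3, for muscle 1 of 2 and for epidermis 0 of 2. By the same count the share of all protein-coding genes was 66.6%. Progenitor and interneuron genes were thus as often accessible as those of motor neurons, and the part that other cells take in the values below was not tested.

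Transcription starts were taken from RefSeq on GRCm38.p6, the assembly behind mm10. The promoter table lists 21 starts for 8 of the 10 genes, and Rbfox2 and Celf4 have no entry in it. The 250 bases before 4 of these starts are printed 5′ to 3′ on the gene's own strand. They belong to starts inside an interval with a strong summit, and set the outer start of Elavl4 beside its inner one. The strong summit lies outside the printed bases at Nova1, 715 bp before the start. It also does at Elavl3 and the outer start of Elavl4, 128 and 79 bp into the transcript. Capitals mark the E-box CAGCTG, the E-box CATCTG on either strand, the homeobox core TAATTA and the Onecut motif ATTGAT.
outer start, Elavl4, chr4:110351912-110352161, minus strand: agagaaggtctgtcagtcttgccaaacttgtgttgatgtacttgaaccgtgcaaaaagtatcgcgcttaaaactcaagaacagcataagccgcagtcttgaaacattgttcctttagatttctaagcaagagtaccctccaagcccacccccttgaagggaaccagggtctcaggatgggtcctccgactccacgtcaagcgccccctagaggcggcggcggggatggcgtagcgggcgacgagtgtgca
inner start, Elavl4, chr4:110287528-110287777, minus strand: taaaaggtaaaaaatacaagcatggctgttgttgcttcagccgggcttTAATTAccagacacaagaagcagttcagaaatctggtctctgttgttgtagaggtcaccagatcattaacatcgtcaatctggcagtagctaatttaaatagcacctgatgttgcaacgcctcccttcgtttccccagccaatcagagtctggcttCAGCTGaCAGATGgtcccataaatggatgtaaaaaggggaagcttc
start, Elavl3, chr9:22052024-22052273, minus strand: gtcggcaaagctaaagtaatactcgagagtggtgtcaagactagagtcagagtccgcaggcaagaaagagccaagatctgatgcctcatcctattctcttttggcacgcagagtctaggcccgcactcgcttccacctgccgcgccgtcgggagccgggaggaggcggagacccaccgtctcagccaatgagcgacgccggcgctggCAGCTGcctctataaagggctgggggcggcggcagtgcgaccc
start, Nova1, chr12:46818768-46819017, minus strand: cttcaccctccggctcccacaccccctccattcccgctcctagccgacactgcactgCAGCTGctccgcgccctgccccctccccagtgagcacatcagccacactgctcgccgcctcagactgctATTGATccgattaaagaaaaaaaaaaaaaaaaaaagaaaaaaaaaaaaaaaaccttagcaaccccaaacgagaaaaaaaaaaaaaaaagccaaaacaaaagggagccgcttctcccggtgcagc

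The 2 starts of Elavl4 differ in their sequence. The 300 bases around the outer start held 23 CpG dinucleotides at a GC content of 57.0%, and no marked motif. Around the inner start there were 5 CpG at 43.7% GC. There the homeobox core began 202 bases before the start, and the E-boxes 46 and 39 bases before it. The median of all 32817 promoter windows was 7 CpG and 52.7% GC. The start of Elavl3 had 29 CpG and that of Nova1 14, whereas the starts of Rbfox1 had 3 and 7 and that of Rbfox3 had 4. CAGCTG occurred in 7 of the 17 stretches that remain when overlapping windows of a gene are merged, at Elavl2, Elavl3, Elavl4, Nova1, Rbfox1 and Celf5. It occurred in 16.3% of all promoter windows, searched over the same 300 bases. The E-box CATCTG was in 2 stretches, both of Elavl4, and in 17.2% of all windows. The homeobox core was found in 1 stretch (Elavl4) and the Onecut motif in 1 (Nova1), against 5.30% and 7.54% of all windows. The Ebf motif CCCNNGGG was found in 2 stretches, both of Celf5 (13.7% of all windows). Of the REST site, the left part TCAGCAC was found in 0 stretches (5.12% of all windows). The right part, GGACAG, was found in 3 (22.2%). The short CTCF core CCCTC was in 12 stretches and in 66.0% of all windows. CANNTG, which includes both E-boxes above, was in 12 and in 72.3%. All were searched on both strands, and in windows whether or not an interval covered them. The windows holding CAGCTG at Rbfox1 and Celf5 had 0% of their bases in an interval. Those holding the Ebf motif at Celf5 had 5.33% and 0%. Merged stretches can be longer than 1 window and so have more room for a match. A match is a run of letters and not a bound site.

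Entries at transcription starts were found at 7 of the 8 genes with a listed start, Rbfox3 being the exception. Among all protein-coding genes with a listed start the share was 66.5%. The 1 listed start of Rbfox3, at 118761041, lies inside its span, whose 5′ end is at 118911597. No start is listed at that end, so the exception concerns the inner start only. Counting gene ends for Rbfox2 and Celf4, 8 of the 10 genes had an entry within 1 kb (66.6% of all protein-coding genes by the same count). Among those of 100 kb or more it was 5 of 7 (71.4%), against 86.7% of all protein-coding genes of that length. By either end of the span alone it was 9 of 10, all but Rbfox2, against 65.5%. At Rbfox1 the start entry had 2.04-fold and 12 reads, with a q-value over 0.05. The strongest start entry of each of the 7 genes had a median of 6.40-fold, where the 11640 genes with such an entry had 8.47-fold. By the most reads of any start entry of a gene, not always the entry of highest fold, the order was the other way, 152 against 102. The local background was 22.9 to 26.7 reads at the starts of Elavl3, Nova1 and the inner places of Elavl2 and Elavl4.

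**Figure D1:**
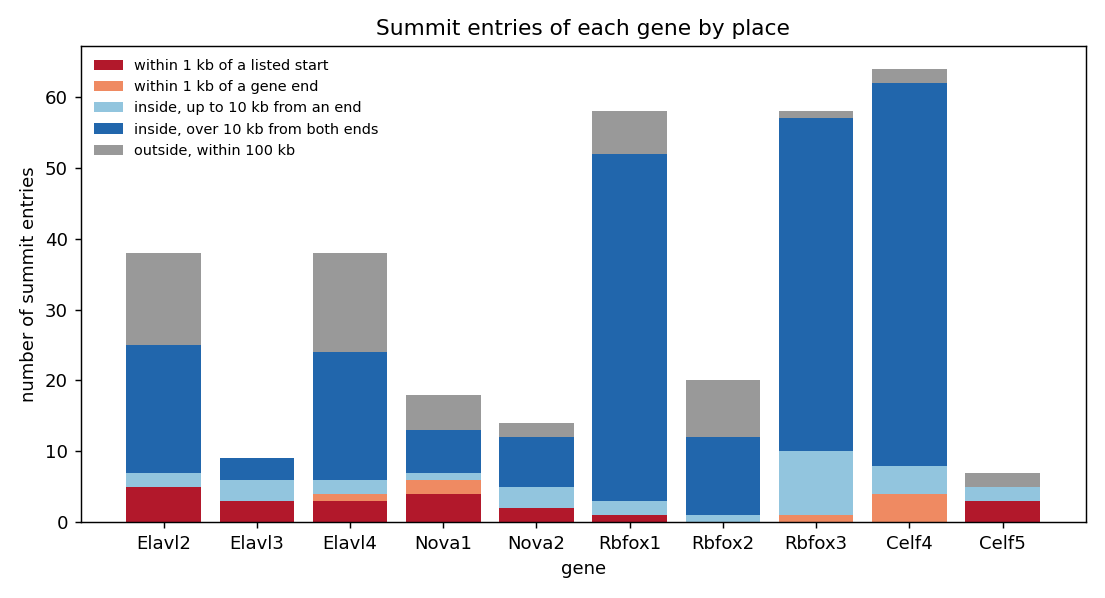
Number of summit entries (vertical axis) of each gene (horizontal axis), stacked by place relative to listed starts and gene ends. Dark blue, the entries over 10 kb inside both ends, fills most of the bars of Rbfox1, Rbfox3 and Celf4, while Elavl2 and Elavl4 have 13 and 14 outside the gene and Elavl3 has 0.

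Entries far inside the genes made up most of the set. In all, 213 of 324 entries (65.7%) lay inside a gene more than 10 kb from both of its ends and more than 1 kb from any listed start. The same share over all genes is not given here. The rule takes in every summit inside a span, and 7 of the 10 genes are 100 kb or longer, so a large share is not particular to these genes. Another 53 lay outside the genes, 29 inside and nearer to an end, 21 within 1 kb of a start and 8 at a gene end only. The deep entries had a median of 2.70-fold and 20 reads, those at starts 3.78-fold and 60 reads. Of the 15 strongest entries by fold, 8 were deep ones, of Celf4, Rbfox1 and Elavl4, a smaller share than the 65.7% of the set. Those of Celf4 include 2 summits of the same interval. The gene table gives no exons, so sites inside a gene are not divided into exon and intron. Measured from the nearer end, the deepest entry lay at 642.7 kb in Rbfox1, 205.7 kb in Rbfox3, 132.9 kb in Celf4, 93.8 kb in Rbfox2, 93.3 kb in Elavl2, 66.5 kb in Elavl4 and 27.9 kb in Nova1. In Nova2, Elavl3 and Celf5, the short genes, it was 16.8, 16.5 and 9.65 kb.

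The Elavl genes had 85 entries. Elavl4, chromosome 4, 110203737 to 110351939, had the strongest entry of all 10 genes at its outer start. It spanned 110351146 to 110352230 with 13.3-fold and 197 reads (170.4 to 226.5) over a background of 13.9, its summit 79 bp inside the transcript. The inner start, 64.2 kb along the gene, had 5.91-fold and 144 reads at 110287476 to 110287942, its summit 183 bp upstream. Its background was 23.5 reads, so the ratio of folds between these starts is larger than the ratio of reads. A further start, at 110286834, lay outside every interval, with 2.61-fold and 60 reads at a summit 147 bp into the transcript. Between the outer and inner starts, a site at 110311776 to 110312703 reached 8.69-fold and 67 reads, 39.7 kb from the nearer end.

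Elavl4 also had strong sites beyond its 3′ end. The second highest fold of the whole set, 11.4 with 104 reads (85.0 to 126.0), lay 51.1 kb past it at 110152168 to 110153240. A site at 110120492 to 110121574, 82.8 kb past, had 7.33-fold and 71 reads, and one at 110127931 to 110128448 had 5.96-fold and 60 reads. In all 14 of the 38 entries of Elavl4 lay outside the gene and over 1 kb from its end. They are assigned by distance alone, and 26 of the 38 remained with a reach of 50 kb, 25 when any annotated gene could take them.

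Elavl2, chromosome 4, 91211533 to 91400108, had its 6 listed starts in 3 places, and each place was inside an interval. The outermost, at 91399984, had 10.2-fold and 84 reads (67.0 to 104.0) over a background of 7.35. The middle pair had 7.98-fold and 220 reads (191.9 to 251.1) over 26.7, and the inner 3 shared an interval of 1197 bp with summits of 178 and 182 reads, both of 6.77 to 6.78-fold. By fold the outermost start was the highest of the 3 places. By reads it was the lowest, its interval clear of both others, while those of the middle pair and the inner place (156.5 to 210.4) overlap. Further along, the gene held low sites, and the median of its 38 entries was 2.48-fold and 16 reads, the lowest median fold of the 10 genes. Only 22 of the 38 had a q-value under 0.05. Upstream, 29.0 kb before the gene, a site of 6.75-fold and 42 reads lay at 91428840 to 91429341. Mir6402, a miRNA gene at 91373284 to 91373363 between the inner and middle starts, had no entry within 1 kb.

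Elavl3, chromosome 9, 22015005 to 22052146, had 9 entries, all inside its span. A broad interval of 1810 bp at 22050456 to 22052265 covered its only listed start and held 4 summits. The one 128 bp into the transcript had 6.40-fold and 152 reads (128.8 to 178.2), and the farthest in had 96 reads at 4.13-fold. The highest fold of the gene, 6.47 with 64 reads over a background of 9.04, lay at 22035320 to 22036220, 16.5 kb from the nearer end. Its neighbour at 22028410 to 22028956 had 5.24-fold and 53 reads. With 23.0 entries per 100 kb of assigned sequence, Elavl3 was denser than Elavl4 (14.0) and Elavl2 (9.78).

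**Figure D2:**
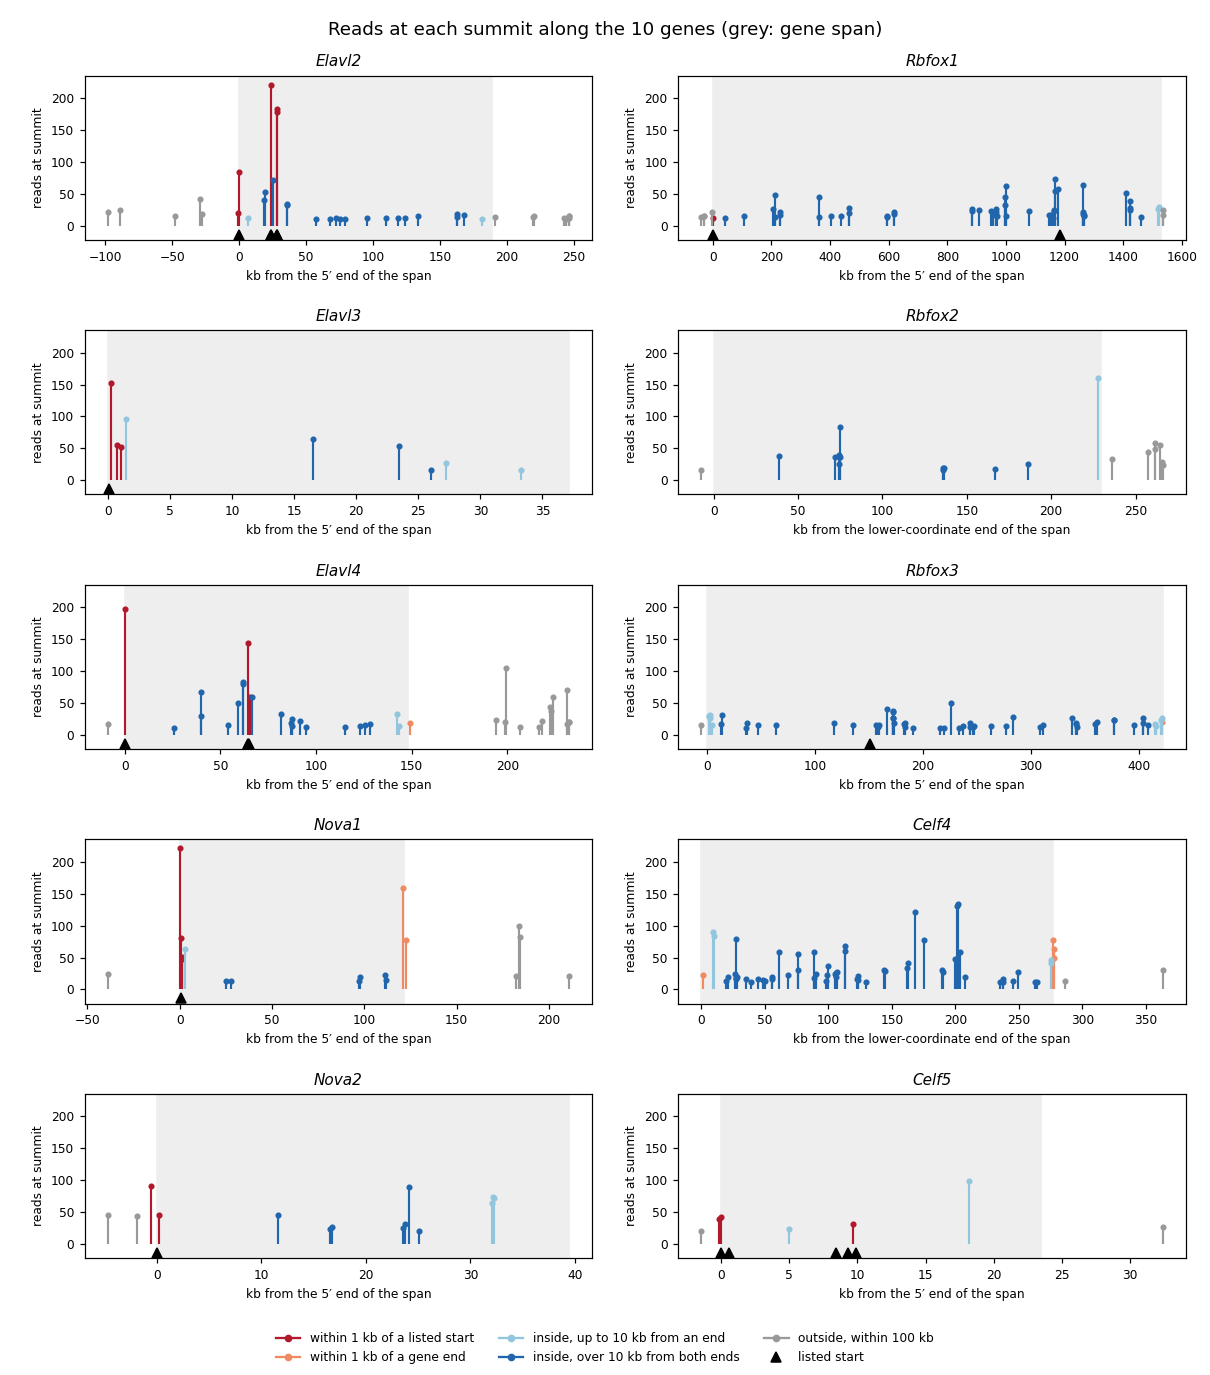
Reads at each summit (vertical axis, same scale throughout) against distance in kb along each gene (horizontal axis), from its 5′ end or, for Rbfox2 and Celf4, from its lower-coordinate end. Grey marks the gene span and black triangles the listed starts. The tallest sites of Elavl2, Elavl3, Elavl4, Nova1 and, by a small margin, Nova2 stand at starts, up to 221 reads. No site of Rbfox3 exceeds 50 reads.

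The Nova genes had 32 entries. Nova1, chromosome 12, 46697895 to 46819480, had the most reads of any entry in the set, 221 (192.8 to 252.1) at 8.55-fold. Its summit lay 715 bp before the listed start and 2 bp outside the span, in an interval of 1829 bp at 46818169 to 46819997 that also covers the start. The 3 other summits of this interval, within the transcript, had 47, 51 and 80 reads. The highest fold of Nova1 was instead at its 3′ end, 8.91 with 159 reads (135.2 to 185.7) at 46697892 to 46699272. A site 62.4 kb past that end, at 46635038 to 46635754, had summits of 8.63 and 7.15-fold with 99 and 82 reads. Between the ends the gene was sparse. No summit lay in the 69.1 kb between 46722537 and 46791622, and the 6 deep entries had 13 to 23 reads.

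Nova2, chromosome 7, 18925888 to 18965319, had its highest folds away from the start. The site 526 bp before the listed start had 5.37-fold and 91 reads (18925027 to 18925681), and one 239 bp into the transcript had 2.80-fold and 46 reads. The start base itself lay in neither interval. Inside the gene, 18949369 to 18950447 reached 6.90-fold and 89 reads, and 18957417 to 18958360 had 3 summits of 5.82 to 6.48-fold and 65 to 73 reads. These 3 summits lay within 1 kb of an end of the long non-coding RNA gene Gm38952. The difference in reads between the start and the strongest inner site, 91 against 89, was within counting error. Nova2 had 24.0 entries per 100 kb, the most of the 10 genes, and Nova1 had 5.60.

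The Rbfox genes had 136 entries. Rbfox1, chromosome 16, 5884793 to 7412480, is the longest at 1528 kb. Neither of its listed starts lay inside an interval. The outer one had the 12-read entry given above, 626 bp into the transcript, and the nearest summit to the inner one was 8759 bp upstream. That upstream site, 7060858 to 7061425, was the strongest of the gene with 9.27-fold and 58 reads (44.0 to 75.0), 351.4 kb from the nearer end. Others stood at 7292628 to 7293729 (8.33-fold, 52 reads), 7146202 to 7147599 (8.12-fold, 64 reads) and 7052403 to 7052866 (7.28-fold, 74 reads). A summit at 6097143 to 6098072, nearer to the outer start, had 7.52-fold and 48 reads. The 52 entries inside the gene fell in 4 equal parts, from 5′ to 3′, as 10, 8, 14 and 20. The strongest outside, at 7419774 to 7420234, had 4.08-fold and 25 reads. The deepest lay 642.7 kb from the nearer end with 4.40-fold and 27 reads, at the edge of a stretch of 265.8 kb without an entry (6504044 to 6769813). For its length the count was ordinary, 58 against a median of 50.5 for the longest class of genes, and the density of 3.36 per 100 kb was the lowest of the 10.

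Rbfox3, chromosome 11, 118489760 to 118911597, also had 58 entries, in 421.8 kb. None lay within 1 kb of its 1 listed start, at 118761041 inside the span. The nearest summit, 6115 bp into the transcript, had 2.67-fold and 16 reads. No start is listed at the 5′ end of the span. Near the 5′ end of the span, an interval of 1552 bp at 118908583 to 118910134 had 4 summits of 2.90 to 3.42-fold and 26 to 31 reads, 1.68 to 2.82 kb inside. At the 3′ end the entry within 1 kb had 2.61-fold and 20 reads (118490378 to 118491078). The highest entry, at 118685396 to 118685970, had 7.21-fold and 50 reads (37.1 to 65.9), and the next had 4.41-fold and 40 reads. The median was 17 reads. The 57 inner entries were spread along the gene, with 11, 15, 14 and 17 in 4 equal parts. Outside there was 1 entry, 4.98 kb upstream, of 2.67-fold and 16 reads. With the upper 50% of the list by −log10 q, 14 of its 58 entries remained, against 28 of 58 for Rbfox1.

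Rbfox2, chromosome 15, 77078990 to 77308434, had 20 entries, and all 20 had a q-value under 0.05. Neither end had an entry within 1 kb, but a site of 10.03-fold and 160 reads (136.2 to 186.8) lay 1563 bp inside the higher-coordinate end, at 77306166 to 77307440. It had more reads than any entry of Rbfox1 (at most 74) or Rbfox3 (at most 50), with intervals of reads that do not overlap. A site deeper in, at 77152993 to 77154104, held 4 summits, the highest of 7.65-fold and 83 reads, and 77117307 to 77117850 had 5.75-fold and 38 reads. Past the same end as the strongest site, 5 intervals between 6.76 and 36.7 kb away held 7 entries. The highest fold among them was 5.34 with 33 reads, and the most reads were 59 at 4.23-fold (77340139 to 77340580). When any annotated gene could take an entry, the 12 inside Rbfox2 remained.

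The Celf genes had 71 entries, of which Celf4 had 64, the most of any of the 10 genes. Celf4, chromosome 18, 25477620 to 25754520, had 60 inside its span and 54 of them deep. The strongest, at 25645691 to 25646479, had 11.3-fold and 122 reads (101.3 to 145.7), 108.4 kb from the nearer end. It was followed by 25653051 to 25653509 with 9.09-fold and 77 reads, and by 25678762 to 25679808 with 2 summits of 8.92 and 8.74-fold and 134 and 131 reads. The strongest outside, 86.5 kb beyond the higher-coordinate end at 25840745 to 25841233, had 5.03-fold and 31 reads. At the higher-coordinate end the highest entry had 5.76-fold and 77 reads (25754096 to 25754634), below the strongest deep site by an amount larger than the counting error. This end overlaps the long non-coding RNA gene Gm32896. A further site of 8.79-fold and 79 reads (25504917 to 25505648) had its summit 85 bp from an end of Gm32825, another such gene inside Celf4.

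Celf5, chromosome 10, 81459227 to 81482730, is the shortest of the 10 at 23.5 kb and had 7 entries. At its outermost start, the base of which lay inside the interval 81482484 to 81482973, summits of 4.0 and 3.78-fold had 43 and 39 reads. Of its 5 listed starts, 4 had an entry within 1 kb, and the remaining one had its nearest summit at 1209 bp. The strongest entry was elsewhere, at 81464313 to 81464807, with 7.83-fold and 99 reads (80.5 to 120.5), 5.29 kb from the 3′ end. Its interval of reads does not overlap that of the 43 reads at the start (31.1 to 57.9). Outside, 8.89 kb past that end, 81450135 to 81450458 had 3.89-fold and 26 reads.

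**Figure D3:**
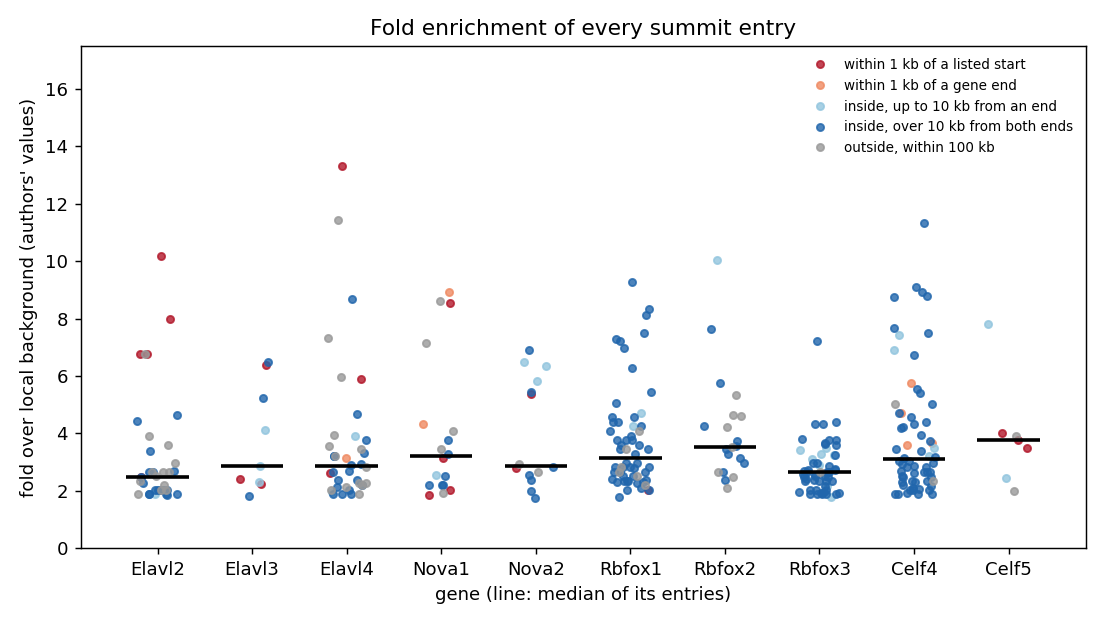
Fold over the local background (vertical axis, the authors' values) of every entry of each gene (horizontal axis), coloured by place, with the median of each gene as a black line. Medians lie between 2.48 (Elavl2) and 3.78 (Celf5), and the points above 10 belong to Elavl4, Celf4, Elavl2 and Rbfox2.

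The number of entries was set against gene length, since long genes hold more of them. At least 10 entries were found at 8 of the 10 genes, against 16.4% of all protein-coding genes. All 7 that are 100 kb or longer had 10 or more, against 69.7% of protein-coding genes of that length. Of these, 6 had 20 or more (36.3%), Nova1 being the exception with 18. Genes were classed by doubling steps of length from 8 kb. Elavl2, Elavl4, Nova2, Rbfox3 and Celf4 had more entries than the 90th percentile of their class, 5 of the 10 genes, against 8.31% of all protein-coding genes of 8 kb or more. Celf4 with 64 and Rbfox3 with 58 stood against a class median of 22, and Elavl2 and Elavl4 with 38 each against 14. Nova2 with 14 stood against 4. The other 5 genes lay between the median and that percentile: Celf5 with 7 (median 3), Elavl3 with 9 (median 4), Nova1 with 18 (median 8), Rbfox2 with 20 (median 14) and Rbfox1. With a reach of 20 kb the count fell to 3, Nova2, Rbfox3 and Celf4. Which genes passed changed with the setting, and only Celf4 did so under all 7 alternatives run. Elavl2 was not among them with q-values under 0.05, with the upper 50% of the list or inside the span only. Elavl4 was not with a reach of 50 kb or inside the span only, Nova2 with 1 entry per interval, nor Rbfox3 with the upper 50%. Nova1 entered with the upper 50% and Elavl3 inside the span only. Leaving out backgrounds of 30 reads or more could not change the count of any of these genes, whose highest background was 26.7 reads. Per 100 kb of assigned sequence the 10 genes had a median of 13.3, against 6.0 for all protein-coding genes.

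**Figure D4:**
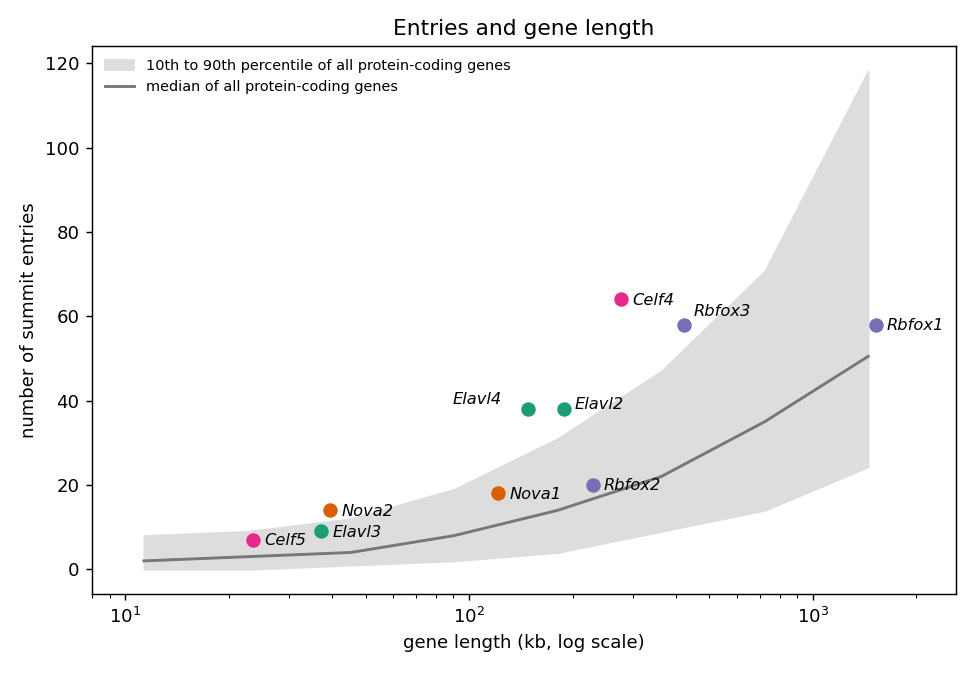
Number of summit entries (vertical axis) against gene length in kb (horizontal axis, log scale), with 1 point per gene coloured by family. The grey line and band give the median and the 10th to 90th percentile of all protein-coding genes in doubling classes of length, drawn at the middle of each class. Celf4, Rbfox3, Elavl2, Elavl4 and, by a small margin, Nova2 stand above the band, and Rbfox1 lies near the median.

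The 35 other genes of RNA-binding proteins on a fixed list had an entry at a listed start (or an end where none is listed) in 33 cases (94.3%, against the 66.6% of all protein-coding genes). Srrm3, a splicing activator of neuronal microexons, and Cpeb2, a regulator of polyadenylation and translation, were the exceptions. All 5 paralogs of the Elavl and Celf genes had one: Elavl1 at 8.90-fold, Celf1 at 10.2, Celf2 at 9.55, Celf3 at 8.56 and Celf6 at 11.7. Elavl1, the widely expressed member of its family, had 2 entries by the rule of assignment, compared with 9 to 38 for Elavl2, Elavl3 and Elavl4. The 8.90-fold entry at the start of Elavl1 is not among these 2, of which the higher had 7.91-fold. The 3 genes with the highest counts on the list were Celf2 (74), Msi2 (69), which controls translation in progenitors, and Qk (28), a KH-domain regulator of splicing. Ptbp1 and Ptbp2, which repress neuronal exons in progenitors and young neurons, had 4 and 17. The median of the list was 7 entries and 7.0 per 100 kb. These genes are shorter than the 10 genes in many cases, and the difference was not tested.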

How the data were processed

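The data were 1 peak list for both replicates of sorted motor neurons, pooled and filtered by the authors. Per the submitters' processing notes the build was mm10 and the tools included MACS2 2.2.7.1, BWA 0.7.1.7, SAMtools 1.7.2, cutadapt 0.6.2 and Trim Galore, without their roles. Settings, the filter, duplicate treatment and any Tn5 shift were not given in the sources used here. The deposited fold is a ratio to the local background, the deposited significance values are −log10 p and −log10 q. The deposited score follows the −log10 p and was not used. Reads (pileup) and background were solved from the deposited fold, taken as (pileup + 1)/(background + 1), and the Poisson tail. Solved pileups were whole, to a tolerance of 0.01 read, for 99.96% of the list and for 100% of the 324 entries. Library depth is not known. A list without replicates gives no test.

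Gene spans came from RefSeq on GRCm38.p6 (21887 protein-coding genes), and starts from its promoter table (250 bases before and 50 after a start, 17492 of these genes). Coordinates are mm10, counted from 1. Markers and the 35 other genes were lists. The rule for named sites took each gene's strongest entry at a start or end, its 2 strongest others, its deepest and its strongest outside, and the 10 strongest of all. Further sites, and Ptbp1, Ptbp2 and the paralogs among the other genes, were named after their values were seen. From the list of other genes, the 3 with most entries and those without one at a start were named. The 10 genes and the lists were chosen with earlier results of these data known. Python 3.11.15, numpy 2.4.6, pandas 2.3.3 and scipy 1.17.1 were used. On simulated data all 5000 pileups were recovered within 0.01 read. No genome was used here, so the planned motif search around summits and the planned protein alignments were not run.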

Additional observations from a re-analysis of the deposited data

How the results depend on the processing

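The 324 entries became 147 with the upper 50% of the list by −log10 q, and 239 to 324 under the other 7 alternatives (q under 0.05, 1 entry per interval, reaches of 50 and 20 kb, the gene span only, any annotated gene as nearest, and no backgrounds of 30 reads or more). The last of these could remove none, since no entry of the 10 genes had a background above 26.7 reads. Entries at a start or end were found at 7 to 9 of the 10 genes with windows of 500 bp and 2 kb and with stricter lists, against 8. Rbfox3 lacked one at its 1 listed start, which is inside the span, under all 4 of these. Rbfox1 lacked one with 500 bp, with q under 0.05 and with the upper 50%, and Rbfox2 had one only with 2 kb. For the other RNA-binding protein genes the number was 32 of 35 with 500 bp and 33 with q under 0.05, the 2 alternatives run for it. Ranked by reads in place of fold, the strongest entry was that of Nova1 (8.55-fold), in place of Elavl4 (13.3-fold), which also led by −log10 q. The 5 genes above the 90th percentile of their length class became 3 with a reach of 20 kb, and 4 or 5 under 6 others. These 7 were chosen after seeing the data, and any annotated gene as nearest was not among them. Celf4 was the only gene above it in all 7. Replicates could not be left out because the list is pooled. No paired analysis was possible because there is 1 group. The planned motif search around summits with 2 window sizes was not run.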
